A study of Rattus norvegicus with 8 samples.

Results

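The genes described here are the rat oocyte coat genes Zp1, Zp2 and Zp3, the oocyte growth factor genes Gdf9 and Bmp15, the receptor gene Kit and the gene of its ligand, Kitlg. They were chosen by name, and each was read from the probe sets of the Affymetrix rat genome array that the annotation assigns to that gene alone. The 7 genes had 10 such probe sets, of 31042 on the array, and 14217 genes were measured in this way in all. A probe set is a group of short probes that gives 1 value for a transcript. Kitlg had 4 probe sets and each of the other genes 1, and where a gene had several, the brightest on average over the arrays of single rats was used.

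Female Sprague-Dawley rats carried a silicone capsule for 12 weeks that released dihydrotestosterone (DHT) at 83 µg per day, and control (CTL) rats had an empty capsule. RNA of the ovarian cortex was taken at 15 weeks of age, and 3 DHT and 3 CTL rats were read on an array each, with 1 further array per group of the pooled RNA of its 3 rats. Aromatase cannot turn DHT, an androgen, into an estrogen, and the treatment was made to mimic the high androgen state of polycystic ovarian syndrome. The study describes corpora lutea in most CTL ovaries and few or none after DHT, so the tissues compared differ in their structures as well as in treatment.

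The zona pellucida is the glycoprotein coat that a growing oocyte secretes around itself, and ZP1, ZP2 and ZP3 are among its proteins. GDF9 and BMP15 are growth factors of the TGF-beta family that the oocyte releases towards the surrounding granulosa and cumulus cells. KIT is a receptor tyrosine kinase found on oocytes and on theca cells, and its ligand, made by granulosa cells, promotes the growth of the oocyte and the recruitment of theca cells. Oocyte transcripts are a small part of the RNA of a whole piece of cortex, where granulosa, theca, luteal, stromal and vascular cells hold most of it.

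In the mouse, the oocyte factor FIGLA acts on the zona genes through E-boxes, which have the letters CANNTG. The promoter windows of Zp1, Zp3 and Gdf9 are printed because they show how many E-boxes lie near the start of coat genes and of a growth factor gene of the same cell. Each runs 5′ to 3′ from 250 bases before to 50 bases after the start of the gene in the RefSeq table (GRCr8), with E-boxes in capitals. The table matched 6 of the 7 genes, all but Zp2, and the start it uses lies inside the annotated gene for Zp1, Gdf9, Kit and Kitlg.
Zp1, chr1:216992099-216992398, minus strand: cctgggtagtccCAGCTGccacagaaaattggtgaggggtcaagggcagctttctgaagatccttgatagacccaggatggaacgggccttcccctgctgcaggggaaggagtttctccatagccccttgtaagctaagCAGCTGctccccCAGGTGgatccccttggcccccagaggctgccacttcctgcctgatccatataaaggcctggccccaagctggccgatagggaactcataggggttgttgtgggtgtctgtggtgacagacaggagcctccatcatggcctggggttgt
Zp3, chr12:26334077-26334376, minus strand: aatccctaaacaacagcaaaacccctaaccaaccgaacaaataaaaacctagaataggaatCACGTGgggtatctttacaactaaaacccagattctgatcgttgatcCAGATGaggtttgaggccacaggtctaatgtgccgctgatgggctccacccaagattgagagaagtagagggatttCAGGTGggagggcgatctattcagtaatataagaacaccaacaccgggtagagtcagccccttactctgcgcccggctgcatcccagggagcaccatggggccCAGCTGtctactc
Gdf9, chr10:38096301-38096600, plus strand: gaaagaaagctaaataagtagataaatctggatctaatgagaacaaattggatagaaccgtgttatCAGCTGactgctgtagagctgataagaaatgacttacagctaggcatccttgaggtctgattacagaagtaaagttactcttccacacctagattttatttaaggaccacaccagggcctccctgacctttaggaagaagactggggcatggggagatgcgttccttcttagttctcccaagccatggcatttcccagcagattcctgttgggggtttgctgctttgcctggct
Zp3 had 4 E-boxes, the nearest of those before the start being CAGGTG at 66 bases before it, and Zp1 had 3, with CAGGTG at 99 bases before the start. Gdf9 had 1, CAGCTG at 184 bases before the start, Bmp15 had 2, and Kit and Kitlg had 1 each. The sequence reads the same on both strands in its fixed letters, so each E-box was counted a single time. Of 33469 windows of this length, 72.1% held at least 1 E-box, 16.6% held at least 3 and 5.79% held at least 4. The motifs TAATTG and TAATTA, sought on both strands as elements that the oocyte factor NOBOX binds in the mouse, were in none of the 6 windows, and were in 8.2% and 5.36% of all windows.

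Of the 7 genes, Zp2 was called higher in DHT-treated ovaries, and none was called lower. Calls followed the criteria of the study (at least 2-fold, p at most 0.01, false discovery rate at most 10%), with limma's test adjusted over all 31042 probe sets. In the same comparison 0.68% of all probe sets were called higher and 0.351% lower, so 1 call among 7 genes rests on Zp2 alone. The study itself reports more calls in each direction than the fit made here. An unadjusted p under 0.05 in limma was found for 2464 of all probe sets with DHT higher and 1217 with DHT lower. Zp1, Bmp15 and Kit lay at background on all 6 arrays of single rats, and Zp3, Gdf9 and Kitlg were read above background on at least some arrays without passing the test. The background level of an array was set at the 95th percentile over 41 probe sets for odorant, pheromone and taste receptors, which ovary is not thought to use, and lay between 2.62 and 3.07 on the log2 scale, highest on CTL replicate 3.

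Zp2 encodes the coat protein to which mouse sperm bind, and lies at chr1:183944840-183956619 (GRCr8). Its log2 values were 5.4, 6.03 and 5.18 in DHT replicates 1 to 3 and 4.19, 3.86 and 3.91 in CTL replicates 1 to 3. Every DHT rat lay above every CTL rat, and the lowest DHT value exceeded the highest CTL value by 0.99. DHT ovaries averaged 5.53 ± 0.441 (SD, n = 3) and CTL ovaries 3.99 ± 0.174 (SD, n = 3). The log2 fold change was thus 1.55 (standard error 0.25, 95% confidence interval 0.92 to 2.17), or 2.92-fold, at an adjusted p of 0.087 in limma. Groups that did not overlap were seen with DHT higher in 10.6% of all probe sets and in 15.6% of those not near background on all 6 arrays, and with DHT lower in 6.85% of all, and an exact permutation test of 3 against 3 gives p = 0.1 for Zp2, the smallest that this design allows. A log2 fold change at least as large was seen in 196 probe sets, 0.631% of all, and 73 of these were called. In these bulk samples more oocytes, more Zp2 RNA per oocyte and a changed share of other tissues, such as luteal tissue, cannot be told apart.

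The adjusted p of Zp2 lay close to the 10% limit, and the call was lost in limma without any single DHT replicate (adjusted p of 0.299, 0.225 and 0.201 without replicates 1, 2 and 3), without CTL replicate 1 (0.156) and without CTL replicate 2 (0.202). Without any single DHT replicate 0 probe sets of the array were called higher, while 1809 to 1874 had an unadjusted p under 0.05 in that direction. The log2 fold change itself lay between 1.3 and 1.77 over the 14 other fits, which reuse the same rats. That it was positive in each adds little. As every DHT value lay above every CTL value, leaving out arrays could not change the sign. A block for replicate number, a trend of variance with the mean and a filter on dim probe sets cannot move the fold change, which stayed at 1.55.

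**Figure D1:**
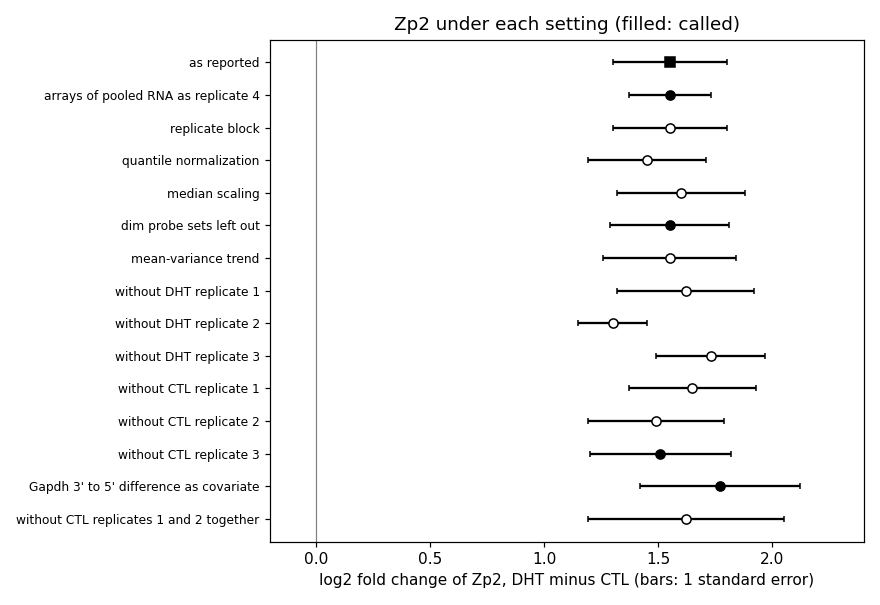
Log2 fold change of Zp2 (x axis, DHT minus CTL, bars show 1 standard error) in the reported fit (square) and in 14 other fits (circles), filled where the call was made. The fold change lies between 1.3 and 1.77 in all fits, and the call was made in 4 of the 14.

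The arrays differed in a control measure of RNA integrity, and the value of Zp2 was set against that. Gapdh is read at both of its ends, and the excess of the 3′ over the 5′ reading, which grows where RNA lacks its 5′ end, was on the log2 scale 0.39 and 0.62 on CTL replicates 1 and 2, 3.49 on CTL replicate 3 and 2.99 to 3.98 on the DHT replicates. Zp2 read 3.91 on CTL replicate 3, whose control difference lay within the DHT range, and the DHT mean was 1.62 above that array and 1.51 above the mean of CTL replicates 1 and 2. No other CTL array lay in the DHT range, so the Gapdh difference and the treatment are largely confounded. A fit with this covariate leans mostly on CTL replicate 3. With the Gapdh difference as a covariate the log2 fold change was 1.77 (standard error 0.35, adjusted p = 0.0233 in limma) and the call was made. The unadjusted p in limma was higher there, 0.00753 against 0.00127 in the reported fit. The adjusted p depends on all probe sets, of which that fit called 2659 higher and 1088 lower, against 211 and 109. Its lower value is thus no stronger evidence for Zp2. CTL replicate 3 also stood apart from the other CTL arrays over all probe sets, with Pearson r of 0.866 and 0.879 against 0.983 between CTL replicates 1 and 2. Without it Zp2 had 1.51 (adjusted p = 0.0782 and unadjusted p = 0.00955 in limma), in a fit that called 654 probe sets higher and 968 lower.

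The arrays of pooled RNA gave 5.54 for DHT and 3.98 for CTL. Both lay close to the log2 of the mean linear value of the 3 rats of their group, 5.58 and 3.99. These arrays hold RNA of the same rats and measure no further animal.

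The tissue carried the markers of an ovary, such as Inha, the alpha subunit of inhibin, at 9.0 to 12.08 in the 6 rats. Some markers of other cells were called as well, in both directions. Of 11 measured markers of granulosa cells, none was near background on all 6 arrays, 2 were called higher and none lower. Their median log2 fold change was 1.11. It was -0.03 over all probe sets, a less like set that includes 10015 near background on all 6 arrays. The log2 of their summed linear level was 13.77 to 14.0 in DHT and 12.65 to 13.14 in CTL rats. The called markers were Inhba, a subunit of activin and inhibin A, at 1.45 (standard error 0.2, adjusted p = 0.0692 in limma) and Gata4, a transcription factor of gonadal somatic cells, at 2.43 (standard error 0.35, adjusted p = 0.0745 in limma), and both calls were lost without any single DHT replicate or without CTL replicate 2 (for Gata4 also without CTL replicate 1). Cyp19a1, the aromatase gene of the same list, had -2.91, the largest change of the list in size, and was not called (adjusted p = 0.404 in limma). Of 8 luteal markers, 1 was called lower, the median was -2.76 and the summed level was 10.19 to 12.45 in DHT and 13.07 to 14.99 in CTL rats. Of 7 theca and interstitial markers 1 was called higher, Insl3, a peptide hormone of theca cells, at 3.11 (adjusted p = 0.0575 in limma). Star, which brings cholesterol into mitochondria, had -3.75 (adjusted p = 0.21 in limma) and Cyp11a1, the enzyme that cleaves its side chain, had -3.17 (adjusted p = 0.29 in limma), neither called though their groups did not overlap. Cyp17a1 of the same list had 2.65 (adjusted p = 0.418 in limma), with groups that overlapped, and was not called. By its own fit the study lists Star, Cyp11a1 and Cyp19a1 as repressed and Cyp17a1 as activated. It measured Star as lower by qPCR as well. The theca markers thus lay on both sides of 0, with 3 of the 7 above it. Their median was -0.25 and their summed level 12.53 to 13.31 in DHT and 13.65 to 14.5 in CTL rats. Lhcgr is on the luteal list too, and the brightest genes, such as Hsd3b1 at 12.26 to 12.74, weigh most in the sum. The study describes theca hyperplasia after DHT, so the sum is not read as an amount of theca. The calls of Insl3 and of the luteal marker, Pla2g1b, were also lost without any single DHT replicate or without CTL replicate 2 (for Pla2g1b also without CTL replicate 1). The part of these cell types in the value of Zp2 was not tested.

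Zp3 encodes a further coat protein, which mediates the early contact with sperm in the mouse, and lies at chr12:26327161-26334126. Its log2 values were 3.4, 3.83 and 3.94 in DHT and 4.1, 3.56 and 2.84 in CTL replicates 1 to 3. The highest and the lowest of the 6 values were both in CTL rats, and the value of CTL replicate 3 was near background. The log2 fold change was 0.22 (standard error 0.35, 95% confidence interval -0.68 to 1.12, adjusted p = 0.896 in limma), so that neither a 2-fold rise nor no change lay outside the interval. Without CTL replicate 3 it was -0.11, and with the Gapdh difference as a covariate it was 0.86 (adjusted p = 0.0994 in limma, not called). The array of pooled CTL RNA read 3.16, against 3.59 from the mean linear value of the 3 CTL rats, and the pooled DHT array read 3.75 against 3.74. Over the 21027 probe sets not near background on all 6 arrays the median size of this gap was 0.19 for CTL and 0.06 for DHT.

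Zp1, whose protein links the filaments of the coat, lies at chr1:216984343-216993882 and was not above background on any array. Its log2 values were 2.31 to 2.35 in the DHT rats and 2.31, 2.3 and 2.38 in the CTL rats, with the highest on CTL replicate 3. No fold change is given for a gene at background in both groups. Zp2 was well above the background level of its array in every rat, Zp3 was above it in 5 of 6 rats and Zp1 in none. A probe set at background does not show that the transcript was absent.

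The change of Zp2 was compared with those of Zp3 and Kitlg, by an exact permutation test over rats of the Zp2 value minus the value of the other gene, a comparison chosen after the values were seen. The change of Zp2 exceeded that of Zp3 by 1.32 on the log2 scale (standard error 0.42), with Zp3 near background on CTL replicate 3, and that of Kitlg by 1.61 (standard error 0.31). In both pairs the DHT rats lay above every CTL rat, and the two-sided exact p was 0.1 for each, before and after Benjamini-Hochberg adjustment, the smallest possible with 3 rats against 3. This test therefore could not pass a threshold of 0.05.

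**Figure D2:**
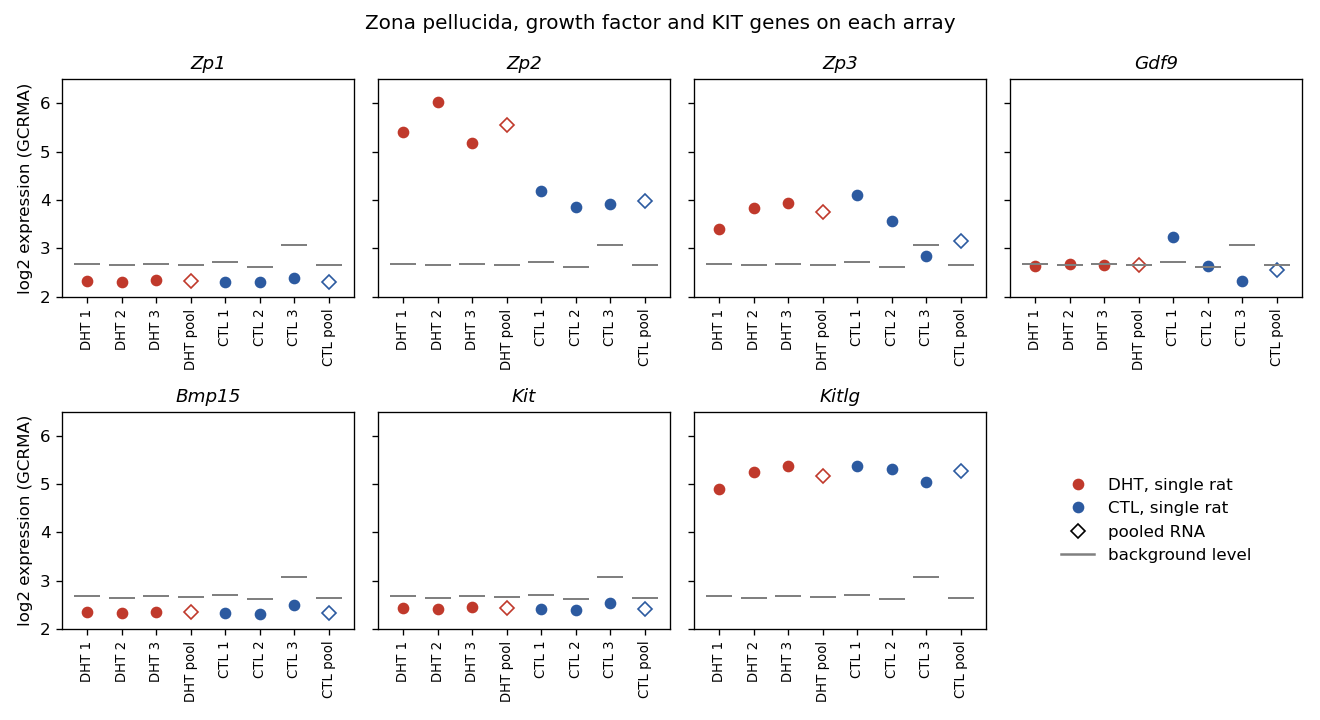
Log2 expression (GCRMA) of the 7 genes (y axis) on each of the 8 arrays (x axis): filled circles are single rats, open diamonds arrays of pooled RNA, red is DHT, blue is CTL, and grey lines mark the background level of each array. The 3 DHT values of Zp2, 5.18 to 6.03, lie above its CTL values, 3.86 to 4.19; Zp1, Bmp15 and Kit lie below the background level throughout.

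The growth factor genes were read at or near background. Gdf9 is needed in the mouse for follicles to grow past the primary stage, and lies at chr10:38090021-38100801. Its log2 values were 2.63, 2.68 and 2.65 in DHT and 3.24, 2.64 and 2.33 in CTL replicates 1 to 3. CTL replicate 1 was the only rat clearly above background, and 2 DHT rats and 1 CTL rat were near background. The log2 fold change was -0.09 (standard error 0.24, 95% confidence interval -0.69 to 0.52, adjusted p = 0.902 in limma), and it was 0.16 without CTL replicate 1 and 0.32 with the Gapdh difference as a covariate. Bmp15, an X-linked partner of Gdf9 at chrX:18840943-18846006, read 2.34 to 2.36 in the DHT rats and 2.34, 2.32 and 2.51 in the CTL rats, at background on every array.

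Kit was at background too. Its single probe set, for the receptor gene at chr14:32901615-32978895, gave 2.42 to 2.45 in the DHT rats and 2.41, 2.4 and 2.55 in the CTL rats. The highest values of Zp1, Bmp15 and Kit were all on CTL replicate 3. On that array, probe sets near background on all 6 arrays read a median of 0.15 above the mean of the other rats. Whether this higher floor accounts for the small differences of these genes was not tested. Mast cells and melanocytes carry KIT as well. Of 13 measured mast cell markers 7 were near background on all 6 arrays, among them Cpa3, Tpsab1 and Tpsb2. The other 6 were above it on at least some arrays, and Mcpt10 and Mcpt8 on all 6, at 2.8 to 4.32. Of 6 melanocyte markers 5 were near background on all 6 arrays, all but Mitf. No marker of either list was called in limma and 0 of the 19 had an unadjusted p under 0.05. The summed mast cell level was 6.33 to 6.39 in DHT and 6.29 to 6.76 in CTL rats, and the summed melanocyte level 6.01 to 6.45 in DHT and 5.76 to 6.29 in CTL rats.

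Kitlg was well above background in all rats. The gene, at chr7:36782621-36863796, was read highest by probe set 1388856_at, with log2 values of 4.89, 5.25 and 5.37 in DHT and 5.37, 5.31 and 5.04 in CTL replicates 1 to 3. The groups overlapped over nearly their whole range, which spanned 0.49. The log2 fold change was -0.07 (standard error 0.16, 95% confidence interval -0.48 to 0.35, adjusted p = 0.898 in limma), an interval that leaves out a 2-fold change in either direction. It turned to 0.07 without DHT replicate 1, 0.11 with the Gapdh difference as a covariate and 0.13 against CTL replicate 3 alone, all within that interval.

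The other probe sets of Kitlg gave less. Probe sets 1370770_s_at and 1396214_at were at background on all 6 arrays, with values of 2.39 to 2.66. Probe set 1388096_at read 3.01 to 3.16 in the DHT rats, 3.02 and 2.93 in CTL replicates 1 and 2 and 4.27 in CTL replicate 3. That array was thus the highest for this probe set and the second lowest for the brightest, and the probe sets of the gene disagree on it.

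The genes through which these ligands signal were examined as lists chosen with earlier results of these data known. GDF9 binds the type II receptor BMPR2 and the type I receptor TGFBR1, and its signal passes through SMAD2 and SMAD3, while that of BMP15 passes through SMAD1 and SMAD5. Of 18 measured genes of 19 that encode such receptors, transducers, inhibitors and processing enzymes, 1 was called higher and none lower. Their median log2 fold change was 0.39. It was -0.03 over all probe sets, a less like set that includes 10015 near background on all 6 arrays. In 8 of the 18 genes the DHT rats lay above every CTL rat. This was so in 15.6% of probe sets that, like all 18 genes, were not near background on all 6 arrays.

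The gene called was Smad3, with log2 values of 7.63, 7.52 and 7.36 in DHT and 6.23, 6.03 and 5.24 in CTL replicates 1 to 3. Its log2 fold change was 1.67 (standard error 0.28, adjusted p = 0.0941 in limma), and the call was lost without any single DHT replicate and without CTL replicate 1 (adjusted p = 0.124) or 2 (0.182). It was lost as well with median scaling (0.145) and a mean-variance trend (0.147). Pcsk6, a convertase that cleaves precursors of the TGF-beta family, had 0.51 (adjusted p = 0.106 in limma), and Smad4, the common partner of the receptor-activated SMADs, had 0.43 (adjusted p = 0.141 in limma). Furin, another convertase, had 0.49 (adjusted p = 0.255 in limma). For these 3 genes too the DHT rats lay above every CTL rat, but each differed by less than 2-fold. The receptor gene Tgfbr1 had 0.52 (adjusted p = 0.475 in limma) and Bmpr2 had -0.15 (adjusted p = 0.914 in limma).

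Cumulus cell genes that GDF9 or BMP15 raise were mostly dim. Of 9 measured, 3 were near background on all 6 arrays, among them Has2, which makes the hyaluronan of the expanded cumulus. None was called in limma, and 2 had an unadjusted p under 0.05, with values on opposite sides. Amh, the hormone of small growing follicles, had a log2 fold change of 0.97 (adjusted p = 0.238 in limma) and Tnfaip6, which binds hyaluronan, had -0.21 (adjusted p = 0.35 in limma) with all DHT rats near background. The study lists Amh among its activated genes.

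Of 23 genes of KIT signalling and ligand shedding, 21 were measured, 2 were near background on all 6 arrays and none was called in limma. An unadjusted p under 0.05 was found for 4, and over all 31042 probe sets for 2464 higher and 1217 lower, so these 4 are not read as a result. Groups did not overlap in 7 genes, 5 with DHT higher and 2 with DHT lower, where the shares over all probe sets were 10.6% and 6.85%. Among probe sets not near background on all 6 arrays, as 19 of the 21 genes were, the share with DHT higher was 15.6%. The median log2 fold change of the 21 genes was 0.2. Foxo3, which keeps primordial follicles at rest in the mouse and is held back by KIT and AKT signalling, had 1.03 (standard error 0.29, adjusted p = 0.24 in limma) with values of 7.84 to 8.28 in DHT and 6.39 to 7.28 in CTL rats, which did not overlap. Pik3ca, a catalytic subunit of the kinase that KIT engages, had 0.69 (adjusted p = 0.24 in limma) and Adam17, a protease that sheds membrane-bound KIT ligand, had 0.6 (adjusted p = 0.385 in limma). Ptpn6, a phosphatase that limits KIT signals and is abundant in blood cells, had -1.06 (adjusted p = 0.249 in limma).

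**Figure D3:**
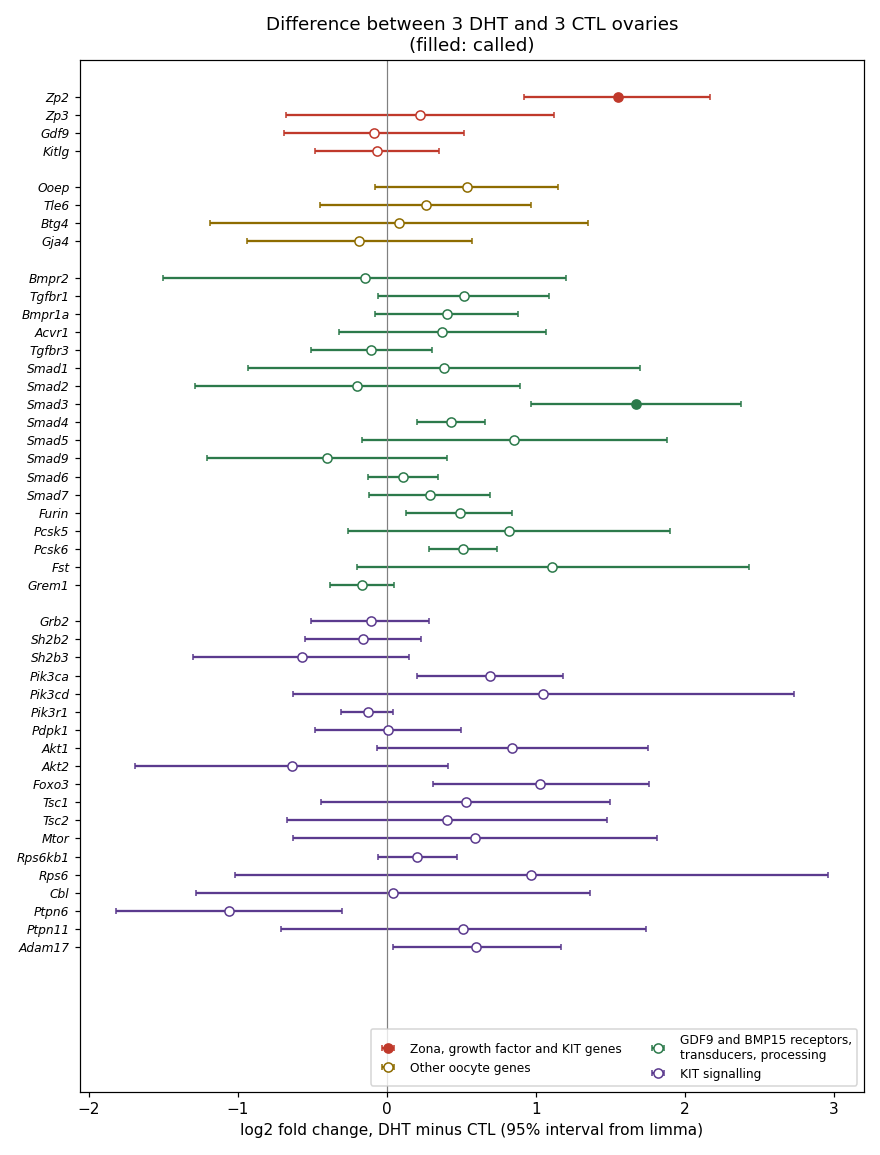
Log2 fold change between 3 DHT and 3 CTL ovaries (x axis, bars show the 95% confidence interval from limma) for genes of 4 lists not near background on all 6 arrays (y axis, coloured by list), filled where called. Zp2 at 1.55 and Smad3 at 1.67 are the called genes, and the intervals of Zp3, Gdf9 and Kitlg span 0.

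Other oocyte genes gave few measurements. Of a list of 33 genes, 7 had a probe set that the annotation assigns to them alone, and 26, such as Figla, Nobox and Zp4, did not and were not analysed here. Of the 7, Sohlh1, Bcl2l10 and Mos were near background on all 6 arrays. None of the 7 was called in limma and 0 had an unadjusted p under 0.05. The median log2 fold change was -0.01 over the 7, a value set by the genes at background, and 0.17 over the 4 not near background on all 6 arrays. Ooep, a protein of the subcortical maternal complex of the oocyte, had 4.62, 4.74 and 5.34 in DHT and 4.66, 4.14 and 4.28 in CTL replicates 1 to 3, and its log2 fold change was 0.54 (standard error 0.24, 95% confidence interval -0.08 to 1.15, adjusted p = 0.484 in limma). Tle6, a further part of that complex, had 0.26 (adjusted p = 0.896 in limma) and Gja4, the connexin that couples oocyte and granulosa cells and also vessel walls, had -0.19 (adjusted p = 0.896 in limma). Of 7 endothelial markers none was called in limma and 2 had an unadjusted p under 0.05, with a median of -0.55 and a summed level of 8.63 to 9.02 in DHT and 8.59 to 9.57 in CTL rats. Btg4, an oocyte factor of maternal RNA decay named here after its values were seen, had 0.08 (adjusted p = 0.946 in limma). In each of these 4 genes the DHT and CTL values overlapped.

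Genes with the profile most like those of Zp2, Zp3 and Gdf9 were sought among 11152 genes not near background on all 6 arrays, as a description. Likeness was the mean absolute difference over the 6 arrays of single rats after each profile was set to mean 0. The nearest to the mean profile were Lamtor3, a scaffold of lysosomal signalling, at 0.0637, Tgfbr1 at 0.0724, Cdh2, the adhesion molecule N-cadherin of granulosa cells, at 0.0783, Zfc3h1 at 0.08 and Fyttd1 at 0.0805. None of these 5 was called; Cdh2 had the lowest adjusted p in limma among them, 0.248. The profile of Zp2 alone, a choice made after its values were seen, was nearest to Gsdmd, at 0.152, and Fhdc1, at 0.166. Kit and Kitlg varied too little over the arrays, by 0.14 and 0.49, for such a search.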

How the data were processed

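RNA of ovarian cortex was hybridised to Affymetrix rat genome arrays. The authors deposited log2 values per probe set from GCRMA, which subtracts a background modelled from probe sequence, normalizes across arrays and summarizes probes. The submitters' processing notes name GCRMA and limma; versions, slides and scan times are not given in the sources used here. The alternatives therefore start from the GCRMA values. Names came from the array annotation, updated by Entrez gene to GRCr8. Of 31042 probe sets, 20826 carried 1 symbol, 436 several and 9780 none; 57 Affymetrix controls were left out.

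The 3 DHT and 3 CTL arrays, each of a separate rat, were compared in R 4.3.3 by limma 3.58.1 (lmFit, eBayes), and p-values were adjusted by Benjamini-Hochberg. Alternatives were a replicate block, quantile or median scaling, a filter on dim probe sets, a variance trend, a Gapdh covariate and single arrays left out. Arrays of pooled RNA served as a check. By rule, the genes that could be named were the 7 genes, the called and up to 4 lowest-p genes of each list, and the 5 nearest profiles; Inha, Cyp19a1, Tgfbr1, Bmpr2, Has2, Btg4, list genes given by name only and the mast cell markers were added after their values were seen. Members and lists were chosen with earlier results of these data known. On simulated data of 31042 probe sets, 44%, 60%, 78% and 94% of 50 probe sets each, changed by 1.5, 2, 3 and 4 on the log2 scale, were recovered, with 11 false calls beside all of them. Precision is limited by how few arrays there are.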

Additional observations from a re-analysis of the deposited data

How the results depend on the processing

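Zp2 was called higher in 4 of the 14 other fits, with adjusted p in limma of 0.0051 to 0.299. Its log2 fold change was positive in all 14, a sign that leaving out arrays could not change because its groups did not overlap. The call, and with it the single call among the 7 genes (0 called higher instead of 1), was lost at 1.45 with quantile normalization (adjusted p = 0.142), 1.6 with median scaling (0.109), 1.55 with a mean-variance trend (0.136) and 1.62 without CTL replicates 1 and 2 together, a setting chosen after seeing the data that leaves 1 CTL array assumed to vary like the DHT arrays (adjusted p = 0.0619 in limma, but an unadjusted p over the limit). With the replicate number as a block, Zp2 kept 1.55 and was not called (adjusted p = 0.203), and of all probe sets 0 were called in either direction, while 2576 higher and 1241 lower had an unadjusted p under 0.05. The calls of Smad3 (adjusted p = 0.176), Inhba, Gata4, Insl3 and Pla2g1b were lost with the block too, and all of them but Insl3 with median scaling and with the trend. The labels give no pairing of rats beyond this number. Deviations from the group mean correlated at -0.074, 0.443 and 0.342 between same-numbered arrays and at -0.534 to 0.482 between the others. With 3 arrays per group these values cannot decide whether the numbers pair the rats. Leaving out single arrays gave Zp2 1.3 to 1.73, with 0 to 1 of the 7 genes called higher, Zp3 -0.11 to 0.52, Gdf9 -0.29 to 0.16 and Kitlg -0.17 to 0.07. Zp3 moved to 0.86 with the Gapdh covariate and 0.89 without CTL replicates 1 and 2. Gdf9 also turned to 0.32 with the Gapdh covariate and to 0.32 without CTL replicates 1 and 2, and Kitlg to 0.11 and 0.13. Over all probe sets, 211 were called higher and 109 lower. These counts were 533 and 433 with the pooled arrays as replicate 4, 87 higher with quantile normalization, 176 lower with dim probe sets left out, 21 and 40 with a mean-variance trend, 2659 and 1088 with the Gapdh covariate, 2505 and 1165 without CTL replicates 1 and 2, and 0 to 654 higher and 0 to 968 lower when single arrays were left out. The cause was not tested. No array measured Zp1, Bmp15 or Kit above background, so nothing can be said of their change.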
